A study of Mus musculus with 6 samples.

Results

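A set of 6 genes of intestinal calcium absorption and vitamin D action were followed, out of the 54532 genes counted. They were chosen by name: Trpv6 (calcium entry), S100g (calcium binding), Atp2b1 (calcium export), Vdr (the vitamin D receptor), Cyp24a1 (vitamin D catabolism) and Ocm (oncomodulin). All 6 were found, each in 1 row of the table, and 4 had enough counts to be tested. PolyA RNA of intestinal epithelium was sequenced from mice labelled Apoe-/- that had been gavaged with Candida albicans, a yeast of the gut flora, or with phosphate-buffered saline (PBS). Gavage was given every 3 days for 2 weeks, with 3 libraries in each group. Both groups carried the same Apoe-/- label. Apoe, the gene named in that label, was counted in both groups, at a mean of 62.2 CPM in the Candida albicans group and 83.0 CPM in the PBS group (CPM are counts scaled to the size of the library). The sources used here give neither age, sex and diet nor the stretch of intestine, and they do not tell if a library is 1 mouse. The p-values therefore speak of the spread among these libraries, which may be technical.

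Dietary calcium crosses the enterocyte in steps. It enters from the lumen through the channel TRPV6, is carried through the cytoplasm by calbindin-D9k (the product of S100g), and is pumped into the blood by the plasma membrane calcium ATPase PMCA1 (the product of Atp2b1). The hormonal form of vitamin D, calcitriol, binds the receptor VDR, which pairs with a retinoid X receptor and is known to raise Trpv6, S100g and Cyp24a1 in the intestine, most strongly in the duodenum. The enzyme made from Cyp24a1 breaks calcitriol down and closes a feedback loop. Oncomodulin is a small EF-hand protein of the parvalbumin family, best known from the outer hair cells of the ear, that binds calcium but is no part of the transport route.

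Totals were 21406930 to 24891735 counts per library. A count of 0 allows up to 0.113 to 0.148 CPM, taking 3 counts as the limit, for counting error only. The 8 enterocyte markers looked at (Vil1, Alpi, Anpep, Sis, Epcam, Cdh1, Krt20 and Slc5a1) were counted in every library, and their levels summed to between 32870 and 42569 CPM in Candida albicans libraries, against 9319 to 23228 CPM in PBS libraries. Markers of the smooth muscle of the gut wall were also counted, the 10 summing to 209 to 2007 CPM in Candida albicans libraries, against 569 to 7910 CPM in PBS libraries. Most of the sum in Candida albicans replicates 2 and 3 was Mylk (206 and 193 CPM). In those libraries Acta2, Myh11, Des and Actg2 had at most 4.06 CPM each. They had 257 to 304 CPM in Candida albicans replicate 1 and at least 47.6 CPM in every PBS library. Mylk and Tagln, in contrast, were higher in Candida albicans replicate 2 than in PBS replicate 2. The mean log2 CPM of those 10 markers, the smooth muscle score, served as a covariate in an alternative fit. Mitochondrially encoded genes took 3.19, 3.93 and 4.63% of counts in Candida albicans replicates 1 to 3, against 6.77, 5.89 and 8.92% in PBS replicates 1 to 3. Ileal and duodenal to jejunal markers occurred together in all libraries. In bulk RNA, fewer cells of a type and less RNA per cell cannot be told apart.

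Ocm and Vdr had their 3 highest levels in the 3 Candida albicans libraries. S100g and Atp2b1 overlapped between the groups, and Trpv6 and Cyp24a1 were at or near 0 throughout. Of the 6 genes, 0 reached an adjusted p under 0.05 by the quasi-likelihood test of edgeR, corrected by Benjamini-Hochberg across the 16313 genes it covered. No gene of those 16313 did so either (0%, smallest adjusted p 0.054, with 4827 at an unadjusted p under 0.05). At an unadjusted p under 0.05 there were 2 of the 4 tested genes, Ocm and Vdr, both on the higher side, beside 29.6% of all genes tested and 13.4% on the higher side. Of all such unadjusted calls 45.2% were on the higher side, and 13.8% when libraries were scaled by their totals alone. Groups that did not overlap, with Candida albicans above PBS, were found for these 2 of 4 genes and for 17.8% of all genes tested. The DESeq2 Wald test called both, beside 17.8% of all genes, and limma-voom called neither, beside 0%.

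**Figure D1:**
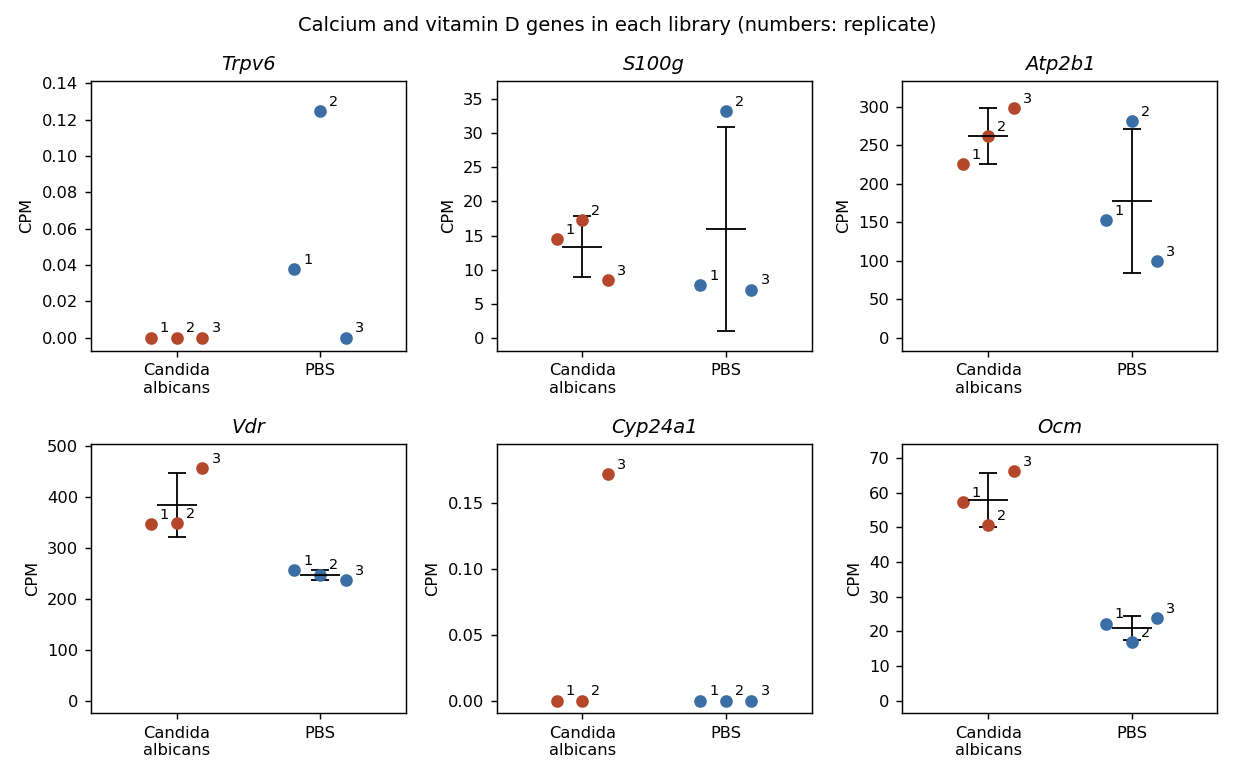
Level of each of the 6 genes in CPM (vertical axis) in the 3 Candida albicans and 3 PBS libraries, with the replicate number beside each point and, for the 4 tested genes, the mean and SD as bars. Ocm and Vdr separate the groups, PBS replicate 2 is the highest library of S100g, and Trpv6 and Cyp24a1 stay under 0.2 CPM.

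The gene of calcium entry was barely represented. Trpv6 (ENSMUSG00000029868, chromosome 6, 41620624 to 41636405, minus strand, mm10) encodes the apical calcium channel. It had 0 counts in each of the 3 Candida albicans libraries and 1, 3 and 0 counts in PBS replicates 1 to 3. No library exceeded the limit of 3 counts, so no fold change is given, and a difference was not detectable at this depth. Trpv5, the related calcium channel best known from the kidney, had no count in any library. Other relatives were present. Trpv3, a warmth-sensitive channel of epithelia, had 7.83, 9.81 and 16.7 CPM in Candida albicans replicates 1 to 3 and 6.36, 4.57 and 5.42 CPM in PBS replicates 1 to 3, a log2 fold change of 1.06 (SE 0.32, adjusted p 0.10 by edgeR's test). Of 10 TRPV and TRPM channels and calcium pumps other than the 6 genes, 7 were tested, with 2 on the higher side and 1 on the lower by an unadjusted p under 0.05, beside 13.4% and 16.2% of all genes (median log2 fold change 0.31). The median turned to -0.73 without PBS replicate 2, where 8 were tested (1 higher, 3 lower, beside 11.8% and 13.9% of all genes). With the smooth muscle covariate it was -0.21 (0 higher, 1 lower, beside 10.6% and 13.1%).

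The calbindin-D9k gene was counted at a low level that 1 PBS library set apart. S100g (ENSMUSG00000040808, chromosome X, 162961992 to 162964599, minus strand) had 14.5, 17.2 and 8.41 CPM in Candida albicans replicates 1 to 3, against 7.72, 33.2 and 7.03 CPM in PBS replicates 1 to 3. The highest and the lowest values of the 6 both came from PBS libraries, so the groups overlapped completely. Means were 13.4 ± 4.51 CPM in the Candida albicans group and 15.998 ± 14.9 CPM in the PBS group (SD, n = 3 each), and the log2 fold change was -0.26 (SE 0.65, 95% interval -1.83 to 1.32, adjusted p 0.80 by edgeR's test). Without PBS replicate 2 the sign turned, to 0.90 (SE 0.34, adjusted p 0.19). The sign also turned under limma-voom (0.068). S100g lies within the limits of Ctps2, a gene on the opposite strand with 134 to 243 counts per library, and the sources used here do not say if counting used the strand.

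Trpv6 and S100g are textbook vitamin D targets, and Vdr encodes the receptor, so the sequences before their start sites are shown for comparison with the counts. Each run is the 250 bases before the RefSeq start site (GRCm38.p6), read 5′ to 3′ on the strand of the gene, from chr6:41636406-41636655 for Trpv6, chrX:162964600-162964849 for S100g and chr15:97908297-97908546 for Vdr. Capitals mark the receptor half-sites AGGTCA and GGTTCA found on either strand, which appear as TGACCT and TGAACC where they lie on the opposite one.
Trpv6: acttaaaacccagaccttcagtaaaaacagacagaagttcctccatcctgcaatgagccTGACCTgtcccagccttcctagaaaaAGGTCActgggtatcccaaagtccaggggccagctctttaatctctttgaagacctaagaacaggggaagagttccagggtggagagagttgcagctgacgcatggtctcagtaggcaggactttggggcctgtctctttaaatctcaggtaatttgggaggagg
S100g: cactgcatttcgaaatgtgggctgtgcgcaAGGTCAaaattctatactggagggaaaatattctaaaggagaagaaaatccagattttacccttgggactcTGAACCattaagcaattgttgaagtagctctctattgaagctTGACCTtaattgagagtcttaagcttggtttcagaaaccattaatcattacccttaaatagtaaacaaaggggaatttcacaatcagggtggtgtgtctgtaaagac
Vdr: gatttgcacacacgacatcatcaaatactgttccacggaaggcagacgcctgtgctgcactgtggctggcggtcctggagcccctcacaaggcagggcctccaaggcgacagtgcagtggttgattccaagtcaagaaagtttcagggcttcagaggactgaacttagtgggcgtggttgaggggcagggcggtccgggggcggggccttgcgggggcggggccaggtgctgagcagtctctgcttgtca

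The Trpv6 window held AGGTCA at 2 places, S100g held AGGTCA at 2 places and GGTTCA at 1, and Vdr held neither. Of the 32851 such windows in the table, 4607 held AGGTCA and 2906 (8.85%) held GGTTCA on either strand. The full DR3 element is 2 half-sites in the same direction with 3 bases between them. Its search used a wider half-site that also allows AGTTCA and GGGTCA, which were not marked on their own. DR3 was in none of these 3 windows and in 13 of all (0.0396%). The windows of Atp2b1, which has 2 RefSeq start sites in the table, and of Ocm held none of these letters either. RefSeq places the start of Ocm 23939 bases upstream of the limits used for counting, so that window does not adjoin the counted gene. The RefSeq starts of Vdr and Atp2b1 lie inside those limits, by 2334 bases for Vdr and by 236 and 746 bases for Atp2b1, while those of Trpv6 and S100g are at the limit. A window of Cyp24a1 was not used here. The matches are descriptions of the letters only.

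The gene of the calcium export pump was higher in mean with Candida albicans, with overlap. Atp2b1 (ENSMUSG00000019943, chromosome 10, 98914406 to 99026143, plus strand) had 226, 262 and 298 CPM in Candida albicans replicates 1 to 3, against 153, 281 and 99.6 CPM in PBS replicates 1 to 3. PBS replicate 2 lay within the range of the Candida albicans libraries and the other two PBS libraries lay below it. Means were 262 ± 36.3 CPM in the Candida albicans group and 178 ± 93.4 CPM in the PBS group (SD, n = 3 each), a log2 fold change of 0.55 (SE 0.37, 95% interval -0.32 to 1.43, adjusted p 0.33 by edgeR's test). Without PBS replicate 2 it was 1.09 (SE 0.29, adjusted p 0.16), and with the smooth muscle covariate it was 0.13 (SE 0.37, adjusted p 0.88). As a log2 ratio to the geometric mean of the enterocyte markers, Atp2b1 differed by -0.48 and S100g by -1.09, with overlap in both (exact permutation p = 0.3 each, two-sided). Of the other 3 pumps of this family, Atp2b2 had 0.94, 0.47 and 1.72 CPM in Candida albicans replicates 1 to 3, against 3.54, 4.07 and 3.93 CPM in PBS replicates 1 to 3. All 3 Candida albicans libraries were below the PBS libraries for this low-level pump gene (log2 fold change -1.89, SE 0.48, adjusted p 0.086). Atp2b4, a widely expressed pump gene, had 20.6, 1.79 and 1.80 CPM in Candida albicans replicates 1 to 3 and 102, 6.02 and 58.7 CPM in PBS replicates 1 to 3, with the highest library of each group the one with the most smooth muscle marker counts. Its log2 fold change was -2.79 (SE 1.32, adjusted p 0.21 by edgeR's test), and -0.21 (SE 0.71, adjusted p 0.90) with the smooth muscle covariate. Atp2b4 was singled out after its values were seen.

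The receptor gene was the more abundant of the vitamin D genes and separated the groups. Vdr (ENSMUSG00000022479, chromosome 15, 97854425 to 97910630, minus strand) had 347, 349 and 457 CPM in Candida albicans replicates 1 to 3, against 257, 248 and 237 CPM in PBS replicates 1 to 3. The PBS libraries lay within a narrow band, and Candida albicans replicate 3 stood above the other two of its group. Means were 384 ± 62.8 CPM in the Candida albicans group and 247 ± 9.65 CPM in the PBS group (SD, n = 3 each), a ratio of 1.56. The log2 fold change was 0.63 (SE 0.16, 95% interval 0.26 to 1.002), with an unadjusted p of 0.0054 and an adjusted p of 0.085 by edgeR's test. It passed the adjusted threshold without PBS replicate 1 (0.78, adjusted p 0.047) and in the DESeq2 Wald test (0.71, adjusted p 0.0022).

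The difference in Vdr depended on the scale. With libraries scaled by their totals alone it was 0.35 (SE 0.17, unadjusted p 0.076, adjusted p 0.17 by edgeR's test), and relative to the enterocyte markers its direction turned. Each of the 8 enterocyte markers had a log2 fold change above 0 (median 1.13). For 7 of them all Candida albicans libraries were above all PBS libraries, beside 17.8% of all genes tested. Taken as a log2 ratio to the geometric mean of those markers, Vdr was at -3.54, -3.42 and -2.80 in Candida albicans replicates 1 to 3, against -3.22, -2.94 and -2.02 in PBS replicates 1 to 3. The groups overlapped on that scale, with a difference of -0.53 (exact permutation p = 0.3, two-sided, where 3 libraries against 3 cannot go below 0.1).

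The gene of vitamin D catabolism left almost no counts. Cyp24a1 (ENSMUSG00000038567, chromosome 2, 170482708 to 170497145, minus strand), usually a sensitive readout of the receptor in intestine, had 0, 0 and 4 counts in Candida albicans replicates 1 to 3 and 0 counts in each PBS library. All of its reads thus came from 1 library, and no fold change is given. It overlaps Pfdn4 on the opposite strand, which had 134 to 230 counts per library, so the origin of 4 reads is uncertain.

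Ocm showed the largest difference of the 4 tested genes. Ocm (ENSMUSG00000029618, chromosome 5, 144019804 to 144026670, minus strand) had 57.2, 50.7 and 66.2 CPM in Candida albicans replicates 1 to 3, against 22.2, 16.9 and 23.8 CPM in PBS replicates 1 to 3. The lowest Candida albicans library was above the highest PBS library by more than the range within either group. Means were 58.1 ± 7.79 CPM in the Candida albicans group and 20.96 ± 3.57 CPM in the PBS group (SD, n = 3 each), a ratio of 2.77. The log2 fold change was 1.46 (SE 0.17, 95% interval 1.05 to 1.87), with an unadjusted p of 7.99e-05 and an adjusted p of 0.073 by edgeR's test, the 13th lowest p of all genes tested. It passed the adjusted threshold in the DESeq2 Wald test (1.55, adjusted p 2.51e-10), without PBS replicate 1 (1.63, adjusted p 0.014), with no count filter (1.47, adjusted p 0.0057, 1 of the 6 genes beside 1.9% of all) and among genes averaging 5 CPM or more (1.41, adjusted p 0.048, beside 0.411%). Without PBS replicate 1, where Vdr passed too, 15.7% of all genes did.

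Relative to the enterocyte markers the difference in Ocm was smaller. The log2 ratio was -6.14, -6.20 and -5.59 in Candida albicans replicates 1 to 3, against -6.75, -6.81 and -5.33 in PBS replicates 1 to 3. PBS replicate 3, the library with the fewest counts of enterocyte markers, was the highest on that scale, and the groups overlapped (difference 0.32, exact permutation p = 0.6, two-sided). In the fit with the smooth muscle covariate Ocm had 1.53 (adjusted p 0.068 by edgeR's test) and Vdr 0.49 (adjusted p 0.27). Only Ocm kept an unadjusted p under 0.05 there, beside 23.7% of all genes, and when libraries were scaled by their totals alone, beside 38.2%. Leukocyte markers, since oncomodulin is also made by some myeloid cells, summed to 46.1 to 248 CPM in Candida albicans libraries, against 105 to 238 CPM in PBS libraries. Of these markers 0 of 8 passed an unadjusted p of 0.05, beside 29.6% of all genes. Pvalb, the parvalbumin gene closest in family to Ocm, had 1 count in PBS replicate 2 and none elsewhere.

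**Figure D2:**
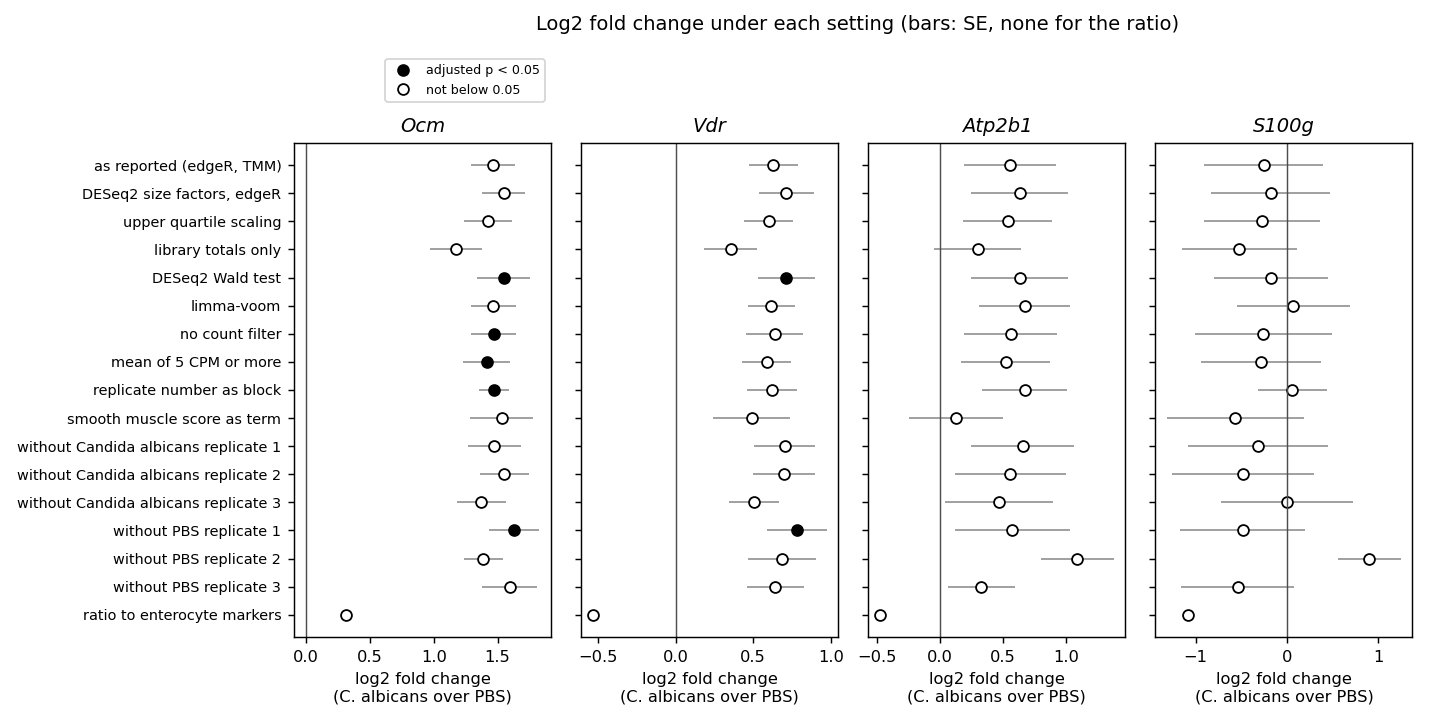
Log2 fold change, Candida albicans over PBS (horizontal axis), of the 4 tested genes as reported and under 16 alternatives, with SE as bars and filled points where the adjusted p was under 0.05. Ocm and Vdr stay above 0 except for Vdr as a ratio to enterocyte markers (-0.53), while S100g lies on both sides of 0.

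Per kb of the deposited gene length, the order of the genes differed between the groups. The order rests on that length, and how it relates to the transcripts present was not tested. With Candida albicans the mean levels were 79.2 CPM per kb for Ocm, 68.0 for Vdr, 27.9 for S100g and 17.2 for Atp2b1. Neighbouring levels overlapped between Ocm and Vdr and between S100g and Atp2b1, and the lowest library of Vdr (61.5) was above the highest of S100g (35.9). With PBS the order was 43.7 CPM per kb for Vdr, 33.3 for S100g, 28.6 for Ocm and 11.7 for Atp2b1. There the libraries of S100g spanned 14.7 to 69.3 and so overlapped all 3 others, while the lowest of Vdr (42.0) was above the highest of Ocm (32.4). Trpv6 and Cyp24a1 came last in both groups, at or below 0.0482 CPM per kb in any library.

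The 4 tested genes differed in their pattern over the 6 libraries. Likeness was measured as the root mean square difference of log2 CPM, centred on each gene's mean, over 6 libraries and against 9951 named genes with a mean of 5 CPM or more. Nearest to Ocm were Fbp1, which encodes a gluconeogenic phosphatase (0.15), Ebpl (0.20) and Slc10a5 (0.20). Nearest to Vdr were Slc35f2 (0.033), Atrn (0.044) and Spata2 (0.061), all with the PBS libraries in a narrow band and Candida albicans replicate 3 on top. Atp2b1 was nearest to Nipal1, a magnesium transporter gene (0.13), Plxna2 (0.16) and Slc30a1, a zinc exporter gene (0.16), with PBS replicate 3 lowest. S100g was nearest to Upp1, a uridine phosphorylase gene (0.23), Ddx60, an interferon-induced helicase gene (0.24), and Lgals3bp (0.27), all highest in PBS replicate 2.

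**Figure D3:**
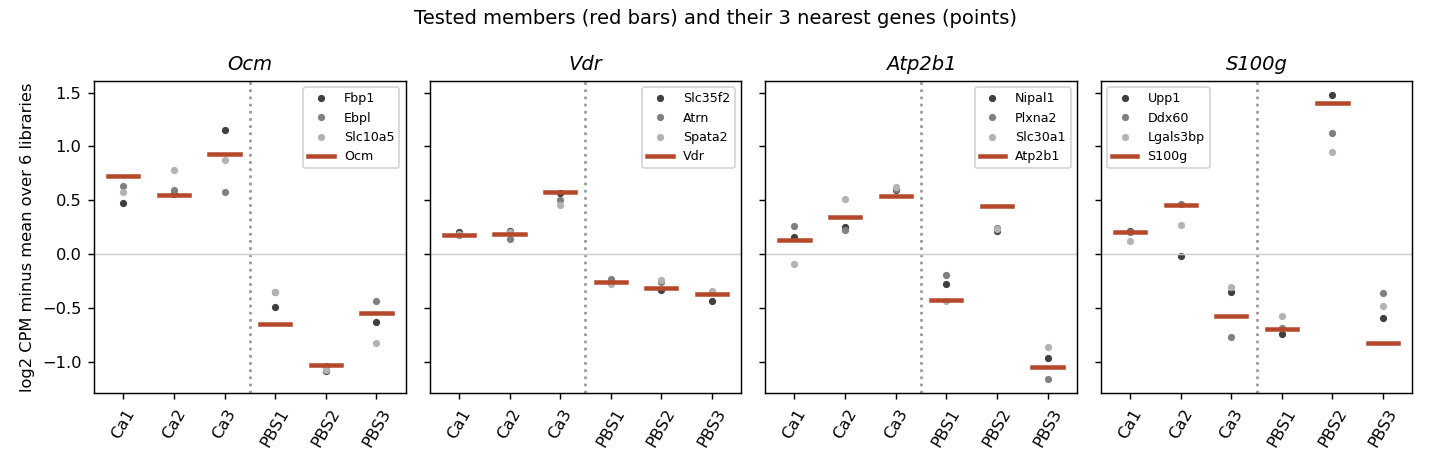
Log2 CPM minus the mean over the 6 libraries (vertical axis) for each tested gene (red bars) and its 3 nearest genes (grey points), with Candida albicans libraries (Ca) left of the dotted line and PBS libraries right of it. Ocm and Vdr lie above 0 with Candida albicans and below 0 with PBS, whereas S100g peaks in PBS replicate 2.

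Other genes of vitamin D handling were divided. Of 18 genes for the activation, carriage and receptor partners of vitamin D, 14 were tested, and by an unadjusted p under 0.05 there were 5 on the higher side and 1 on the lower, beside 13.4% and 16.2% of all genes, with 0 past the adjusted threshold in edgeR's test. With the smooth muscle covariate there were 2 and 0, beside 10.6% and 13.1%. Without PBS replicate 2 there were 3 and 1, beside 11.8% and 13.9%. Their median log2 fold change was 0.03, beside -0.16 over all genes tested. Cubn, which encodes cubilin, a receptor that takes up vitamin B12 in the ileum and the vitamin D binding protein in the kidney, had 1180, 1057 and 1187 CPM in Candida albicans replicates 1 to 3, against 502, 268 and 109 CPM in PBS replicates 1 to 3. The groups did not overlap (log2 fold change 1.96, SE 0.52, adjusted p 0.089). Rxra, the main retinoid X receptor partner of VDR, had 220, 201 and 213 CPM in Candida albicans replicates 1 to 3, against 141, 173 and 143 CPM in PBS replicates 1 to 3 (log2 fold change 0.46, SE 0.13, adjusted p 0.095). Cyp27b1, which makes calcitriol, stayed under 0.3 CPM in every library, and Gc, the vitamin D binding protein made in liver, had no count. Without PBS replicate 1 this list had 4 members higher past the adjusted threshold, beside 10.1% of all genes.

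Genes reported as raised by calcitriol in intestine were mixed. The list of 14 holds 5 of the 6 genes above, 12 were tested, and an unadjusted p under 0.05 was reached by 2 on the higher side and 0 on the lower, beside 13.4% and 16.2% of all genes. Those 2 were Vdr and Slc34a2, and the median log2 fold change was 0.37, beside -0.16 over all genes tested. That median was 0.84 without PBS replicate 2 and 0.027 with the smooth muscle covariate (1 higher, 2 lower, beside 10.6% and 13.1% of all genes). Slc34a2, a phosphate transporter of the brush border, had 927, 1063 and 1425 CPM in Candida albicans replicates 1 to 3, against 445, 241 and 136 CPM in PBS replicates 1 to 3 (log2 fold change 2.05, SE 0.44, adjusted p 0.079). Abcb1a, a drug efflux pump gene, had 468, 393 and 399 CPM in Candida albicans replicates 1 to 3, against 162, 337 and 71.7 CPM in PBS replicates 1 to 3 (1.14, SE 0.51, adjusted p 0.19). Without PBS replicate 2 there were 5 of this list on the higher side by that threshold, beside 11.8% of all genes, and all 4 tested genes of the 6 passed it, beside 25.6% in either direction. Slc34a2 overlaps Gm17182 (8 to 33 counts per library) and Abcb1a overlaps Gm42686 (9 to 57 counts), each on the opposite strand.

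Other genes of calcium transport lay on both sides of 0. Of 21 in this wider set 16 were tested, with 3 on the higher side and 1 on the lower by an unadjusted p under 0.05, beside 13.4% and 16.2% of all genes (median log2 fold change 0.10). The smooth muscle covariate gave 1 and 3 (median -0.023), beside 10.6% and 13.1% of all genes. Removal of PBS replicate 2 gave 4 and 4 of 17 tested, beside 11.8% and 13.9% of all genes. Cldn15, a claudin that forms cation-selective pores between enterocytes, had 823, 734 and 649 CPM in Candida albicans replicates 1 to 3, against 473, 321 and 358 CPM in PBS replicates 1 to 3 (0.93, SE 0.21, adjusted p 0.079). The lower member was Atp2b2, given above. Cldn2, the other claudin of paracellular calcium passage, overlapped between the groups at up to 144 CPM in Candida albicans libraries, against up to 251 CPM in PBS libraries. Epb41, S100a10 and Anxa2, whose products bind the pump or the channel, had log2 fold changes of -0.08, 0.15 and 0.24, with overlap in each.

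Relatives of the calcium binding proteins included more negative than positive values, as did all genes. Of 18 genes related to Ocm and S100g, 10 were tested, 8 of them with a log2 fold change below 0, as 9863 of the 16313 genes tested had. Their median was -0.92, and -0.40 without PBS replicate 2. An unadjusted p under 0.05 was reached by 1 on the higher side and 4 on the lower, beside 13.4% and 16.2% of all genes. Calml4 was the one on the higher side. This calmodulin-like gene of the brush border had 237, 230 and 215 CPM in Candida albicans replicates 1 to 3, against 161, 151 and 161 CPM in PBS replicates 1 to 3 (0.52, SE 0.12, adjusted p 0.080). S100a13 had 8.52, 7.08 and 6.91 CPM in Candida albicans replicates 1 to 3, against 12.8, 20.3 and 11.8 CPM in PBS replicates 1 to 3 (-0.999, SE 0.25, adjusted p 0.085). PBS replicate 2 was the highest library for S100a6, S100a14 and S100a16 too, at 382, 59.6 and 179 CPM, against 90.8, 10.96 and 65.3 CPM in the next highest PBS library. These 3 genes were singled out after their values were seen, and without PBS replicate 2 their log2 fold changes were -0.25, -0.49 and -0.75 in place of -1.39, -2.06 and -1.70.

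Among 17 tested genes for calcium stores inside the cell, 1 on the higher side and 4 on the lower had an unadjusted p under 0.05, beside 13.4% and 16.2% of all genes. Their median log2 fold change was -0.38, and -0.065 without PBS replicate 2 (2 higher, 5 lower, beside 11.8% and 13.9% of all genes). Atp2a3, which encodes the SERCA3 pump of the endoplasmic reticulum, had 165, 161 and 217 CPM in Candida albicans replicates 1 to 3, against 325, 513 and 365 CPM in PBS replicates 1 to 3 (-1.15, SE 0.22, adjusted p 0.076). Orai2, a store-operated calcium channel gene, had -0.73 (SE 0.22, adjusted p 0.10). For both, each Candida albicans library lay below each PBS library, as for 17.9% of all genes tested.

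**Figure D4:**
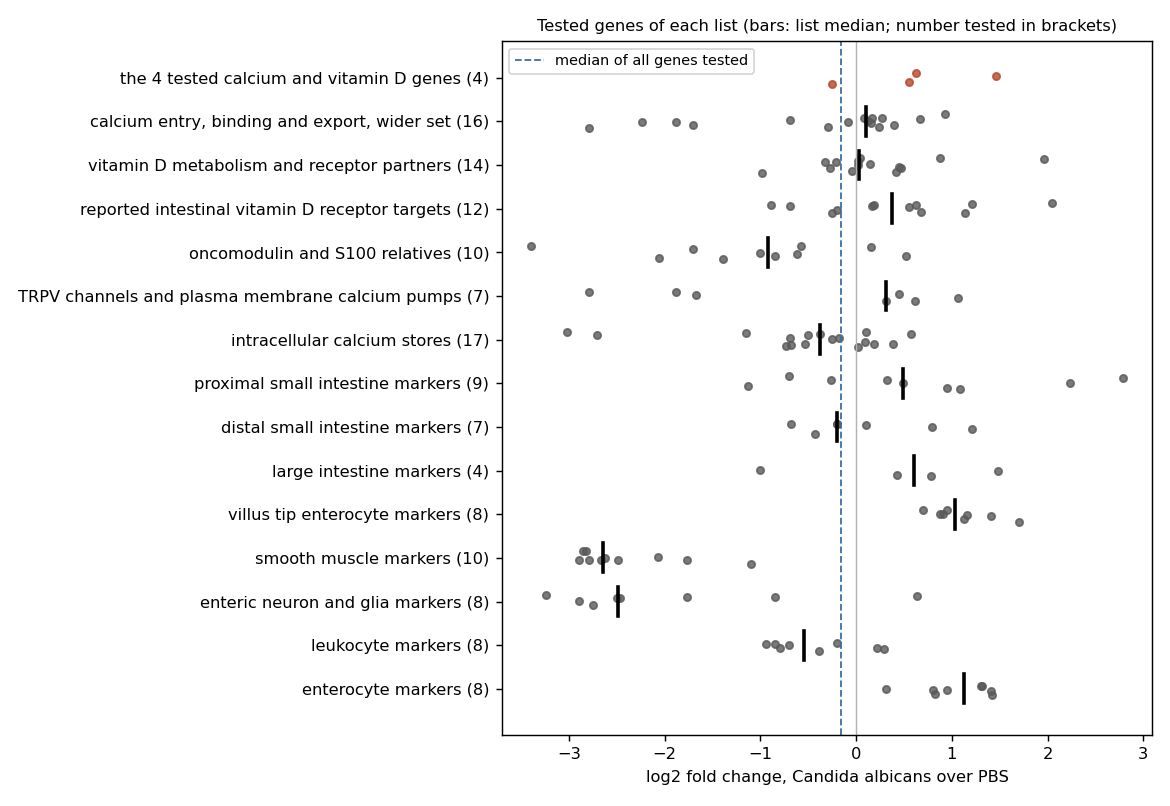
Log2 fold change, Candida albicans over PBS (horizontal axis), of each tested gene of the lists, with list medians as black bars and the median of all genes tested (-0.16) as a dashed line. The 4 tested calcium and vitamin D genes are in red, enterocyte markers lie above 0 and smooth muscle markers below it.

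Markers of intestinal segments and other cell types also differed between the libraries. Duodenal and jejunal markers summed to 1773 to 3534 CPM in Candida albicans libraries, against 394 to 776 CPM in PBS libraries, without overlap, and 4 of 9 tested had an unadjusted p under 0.05, on the higher side, beside 13.4% of all genes. The 2 of lowest p were Fabp1 (log2 fold change 2.23) and Lct (2.79), which together were most of the sum in every library. Of the 9 tested, 6 had a log2 fold change above 0 and 3 below it. The 3 were Onecut2 (-1.12) and Cybrd1 and Slc40a1, an iron reductase and an iron exporter of the duodenum (-0.70 and -0.26). Cybrd1 had at most 1.92 CPM in any library (adjusted p 0.59 by edgeR's test). Pdx1 had at most 0.35 CPM and was not tested. Ileal markers summed to 1048 to 3812 CPM in Candida albicans libraries, against 1454 to 3847 CPM in PBS libraries, with 1 of 7 past that threshold, on the higher side, beside the same 13.4%, and 0 of 7 without PBS replicate 2. Markers of the upper villus summed to 17973 to 25380 CPM in Candida albicans libraries, against 2759 to 14345 CPM in PBS libraries. Apoa1 was most of that sum, and all 8 markers had a log2 fold change above 0. Only Apoa1, 1 of 8, had an unadjusted p under 0.05, on the higher side, beside 13.4% of all genes. It was also the only 1 of the 8 without overlap, beside 17.8% of all genes tested. Nt5e and Slc28a2 were highest in PBS replicate 1 (240 and 693 CPM). Markers of enteric neurons and glia summed to 19.2 to 41.4 CPM in Candida albicans libraries, against 12.1 to 69.1 CPM in PBS libraries. Of the colonic markers Car4 and Mettl7b had -1.001 and 1.48, Hoxd13 was at 0 in every library, and Car1 reached 111 CPM in Candida albicans replicate 3 against at most 1.83 CPM elsewhere. Candida albicans replicate 3 was also the highest library for Vdr, Ocm and Atp2b1 and the only one with reads of Cyp24a1. The part of tissue makeup in the levels of Ocm, Vdr and Atp2b1 beyond the ratios and fits given above was not tested.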

How the data were processed

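Raw read counts per Ensembl gene were deposited as 1 table for the 6 libraries, with no normalization, and a deposited gene length in bases accompanies each gene. The submitters' processing notes list HISAT2 2.2.1, featureCounts 2.0.1, Trim Galore 0.6.7 and mm10. Parameters and strand setting are not stated there, so reads of overlapping genes may be shared. All 6 members have the same limits in GENCODE M21.

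The tests were run with edgeR 4.0.16 (R 4.3.3). filterByExpr (minimum count 10, minimum total 15) kept 16313 genes of the 29031 with a count. Libraries were scaled by TMM and compared with the quasi-likelihood test (robust, two-sided), p-values being corrected by Benjamini-Hochberg across every tested gene (threshold 0.05). CPM use TMM-scaled totals, log2 CPM a prior count of 2. SEs come from the F statistic. Every 2 libraries differed by more than sampling noise (smallest chi-square per degree of freedom 32.8).

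The genes, the lists and the tests were chosen with earlier results of these data known. Named genes are the 6 members, up to 2 genes of lowest p per list and the 3 nearest to each member in pattern. Others stand as examples of a list. Alternatives were other scalings, DESeq2 1.42.0, limma-voom (limma 3.58.1), other count filters, the replicate number or the smooth muscle score as a term, and each library left out. The ratio to enterocyte markers was added after seeing the data.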

Additional observations from a re-analysis of the deposited data

How the results depend on the processing

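No gene passed the adjusted threshold in edgeR's test with all libraries (4827 did at an unadjusted p under 0.05), and none under DESeq2 size factors or limma-voom. The count was 3 under upper quartile scaling, 188 under library totals, 2911 in the DESeq2 Wald test, 552 with no count filter, 43 among genes averaging 5 CPM or more, 40 with the smooth muscle score as a term, and 0 to 2620 with 1 library left out, the highest without PBS replicate 1. Of the 6 genes, 2 were called by DESeq2 (Ocm at 1.55 and Vdr at 0.71), 1, Ocm, with no filter (1.47) and in the 5 CPM set (1.41), and 0 to 2 with 1 library left out. At an unadjusted p under 0.05 there was 1, Ocm, under library totals (beside 38.2% of all genes) and with the smooth muscle term (23.7%). There were 2 to 4 with 1 library left out, beside 18.3 to 33.6% of all genes. With 1 library left out, log2 fold changes were 1.37 to 1.63 for Ocm, 0.50 to 0.78 for Vdr, 0.33 to 1.09 for Atp2b1 and -0.54 to 0.90 for S100g, whose sign turned under limma-voom (0.068) and on removal of PBS replicate 2 (0.90) or Candida albicans replicate 3 (0.00092). As ratios to the enterocyte markers, Vdr (-0.53) and Atp2b1 (-0.48) turned. All genes together had a median of -0.16 with TMM and -0.45 with library totals, where 13.8% of unadjusted calls were higher, against 45.2% with TMM. DESeq2 size factors gave -0.08 and upper quartiles -0.20. The cause of these differences between settings was not tested. Ocm was above 0 under all 16 alternatives. The smooth muscle score, 3.05 with Candida albicans and 7.24 with PBS (difference -4.19, exact permutation p = 0.2), kept its direction under all 7 of its alternatives. Trpv6 and Cyp24a1 were under the count filter, and depth limits any statement on them.

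The replicate numbers were not shown to pair the libraries. Same-numbered libraries deviated together with correlations of 0.58, 0.36 and 0.04, against -0.50 to 0.41 for libraries of different number. The 0.41 was for Candida albicans replicate 3 with PBS replicate 2. With the replicate block 2080 genes were called (12.8%), 1 of the 6 among them, Ocm (1.47, adjusted p 0.020 by edgeR's test), and S100g turned to 0.059.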
